A study of Arabidopsis thaliana with 8 samples.

Results

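The OVATE family genes encode plant proteins that repress transcription and growth. Described here are 10 of them, OFP1, OFP2, OFP4, OFP5, OFP6, OFP7, OFP8, OFP12, OFP13 and OFP15, taken by locus from a table of 28775 genes. They were picked with their ratios of DEX over mock in view, so these ratios are a description and are not tested. The study looked for genes downstream of RABBIT EARS (RBE), a SUPERMAN-type zinc-finger regulator that petals need to form. Buds of mixed floral stages were taken from Arabidopsis thaliana of strain L er, and every plant carried 35S:GR-RBE. This transgene expresses RBE, joined to the glucocorticoid receptor, from the constitutive 35S promoter, and dexamethasone releases the fusion into the nucleus. For DEX, buds were given dexamethasone at 10 µM with 0.1% ethanol and 0.015% Silwet for 4 h, and for mock the solution lacked dexamethasone. The 4 libraries of a treatment, 2 technical replicates for each of 2 biological replicates, are pooled in the deposited levels. A response to dexamethasone itself and a response to the fusion cannot be told apart, since all plants carried the transgene.

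OVATE was first known from tomato, where it affects fruit shape. The proteins share a C-terminal OVATE domain and bind homeodomain proteins of the TALE group, the KNOX and BELL families. In Arabidopsis OFP1 limits cell elongation and represses the gibberellin synthesis gene GA20OX1, and OFP1 and OFP4 work with KNAT7 and BLH6 in secondary wall formation. OFP5 acts with KNAT3 and BLH1 in the embryo sac. By the shape of overexpressing plants, OFP1, OFP2, OFP4, OFP5 and OFP7 form class I, with rounded, curled leaves. OFP6 and OFP8 form class II, and OFP13 and OFP15, with OFP16 and OFP18, form class III, with blunt siliques.

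The sequence upstream of OFP12 and OFP2 is shown because the study asked what lies downstream of a DNA-binding protein. OFP12 was the member with the lowest ratio of DEX over mock, and OFP2 was a member that was not called. Each run is the 250 bases before the annotated gene start in RefSeq TAIR10.1, 5′ to 3′ on the strand of the gene, which is the plus strand in both. Capitals mark matches to AGT or its reverse complement ACT, the core bound by SUPERMAN-type zinc fingers.
OFP12, chr1:1589723-1589972: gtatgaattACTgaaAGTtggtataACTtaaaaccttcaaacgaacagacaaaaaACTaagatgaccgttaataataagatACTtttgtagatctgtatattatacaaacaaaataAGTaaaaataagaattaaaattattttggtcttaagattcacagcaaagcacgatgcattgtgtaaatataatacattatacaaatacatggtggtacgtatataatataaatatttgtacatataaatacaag
OFP2, chr2:12956195-12956444: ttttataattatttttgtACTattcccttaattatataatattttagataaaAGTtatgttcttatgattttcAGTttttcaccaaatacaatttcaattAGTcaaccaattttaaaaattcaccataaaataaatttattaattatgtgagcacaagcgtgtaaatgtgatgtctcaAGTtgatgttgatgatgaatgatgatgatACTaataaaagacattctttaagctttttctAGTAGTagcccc
The core AGT, searched on both strands, occurred 6 times before OFP12 and 8 times before OFP2. It is so short that 99.96% of 26709 upstream windows of protein-coding genes hold it, with a median of 7 matches. All 10 member windows held it. GGACCA (reverse TGGTCC), a core bound by class II TCP factors, was in 0 of the 10 windows and in 5.89% of all windows. TGACAG (reverse CTGTCA), a core bound by KNOX and BELL proteins, was in 1 member window, that of OFP7, from 64 to 59 bases before the start, and in 5.86% of all windows. A match here describes letters and no binding was measured.

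The RBE gene itself, native and transgenic reads together, gave an estimated 21775 reads in DEX against 28895 in mock, for a log2 ratio of -0.19 ± 0.01. Errors given as ± are standard errors from read counting, and no difference could be checked between replicates. All genes together gave 102142647 reads in DEX and 119056377 in mock. As a check of the tissue, the floral identity genes AP1, AP3, PI, AG and SEP3 stood in mock at a read level, normalised to exon length and pool size (RPKM), of 44.8 to 166, and LFY at 2.70. Of the 3 root markers, CASP1 had 1 read in DEX and 0 in mock and RHD6 had 14 reads in all, whereas GL2 had 753.

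The members ranged from scarce to moderate. In mock, RPKM ran from 0.943 for OFP8 to 11.1 for OFP15, between percentile 21.6 and 57.4 of the genes with reads in both pools. OFP15, of class III, had the highest level in both pools, 9.46 RPKM in DEX and 11.1 in mock. OFP13, also of class III, followed at 9.06 and 9.73 RPKM. These 2 genes held 51.5% of the members' reads in mock. OFP1 came next at 3.86 RPKM in DEX and 6.13 in mock. OFP12 had rank 4 in mock at 4.54 RPKM but rank 8 in DEX at 1.07, so it changed place more than any other member. OFP6 stood at 3.34 and 3.36 RPKM in DEX and mock, OFP7 at 2.26 and 2.69, and OFP5 at 1.99 and 1.97. The lowest in mock were OFP4 at 1.03, OFP2 at 1.02 and OFP8 at 0.943 RPKM, which were within counting error of their neighbours in that order. In DEX, OFP8 at 1.17, OFP12 at 1.07, OFP4 at 1.05 and OFP2 at 0.987 RPKM could not be ordered beyond counting error, nor could OFP15 and OFP13, or OFP7 and OFP5. Summed over the 10 genes the level was 34.3 RPKM in DEX and 42.5 in mock. In whole buds, fewer cells of a type and less RNA per cell cannot be told apart.

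**Figure D1:**
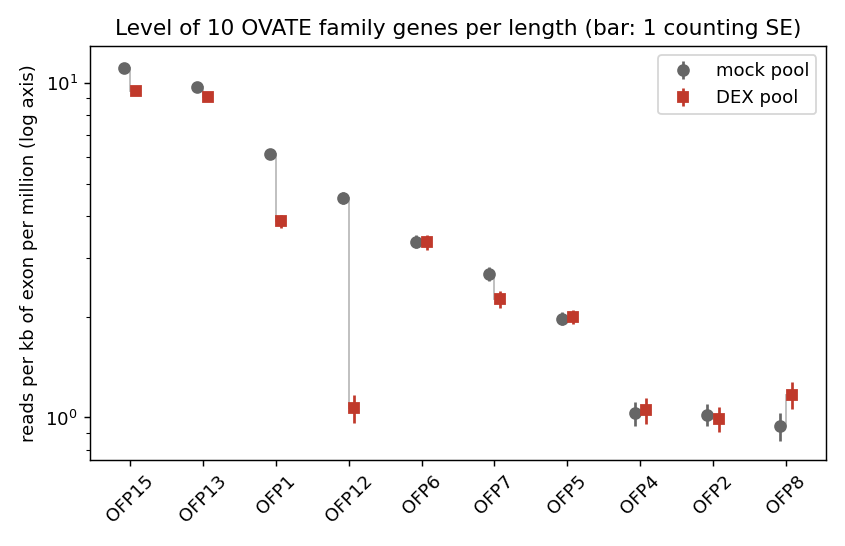
Level of the 10 OVATE family genes in the DEX pool (squares) and the mock pool (circles), in RPKM on a log axis, with 1 counting standard error; grey lines join the pools. OFP12 drops from 4.54 to 1.07 and OFP1 from 6.13 to 3.86, while OFP6, OFP5, OFP4 and OFP2 lie at nearly equal levels in both pools.

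A gene was called where the posterior of the opposite direction in the authors' deposited table was under 0.05. Of the 10 members, 5 were called lower in DEX (OFP12, OFP1, OFP7, OFP15 and OFP13), 0 higher and 5 were not called (OFP2, OFP4, OFP5, OFP6 and OFP8). Over all 24945 genes with reads in both pools, 20.8% were called lower and 36.4% higher. Among the 7564 genes within the members' range of 221 to 3303 reads, 18.8% were called lower and 39.0% higher. When the ratios were centred on the median gene (median ratio set to 0), which lowers each log2 ratio by 0.05, 29.5% of all genes were called lower, and the calls over all genes went from 5183 lower and 9081 higher to 7352 lower and 6339 higher. The members' calls were then still 5 lower and 0 higher. The median log2 ratio of the members was -0.08, against 0.05 over all genes. At 1.5-fold or more 2 members were lower, OFP12 and OFP1, where 2.91% of all genes were lower and 4.45% higher. Because the members were picked on this contrast, these counts carry no weight of their own.

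OFP12 (AT1G05420), on chromosome 1 from 1589973 to 1591012, had the lowest ratio of the family. It had an estimated 113 reads in DEX against 562 in mock. The log2 ratio was -2.09 ± 0.15, or 4.26-fold lower in DEX, with a counting interval from -2.40 to -1.80. This lies at percentile 0.07 of the ratios of all genes. The gene has a single exon, no overlapping gene on the other strand and no near-identical copy, and it belongs to none of the 3 overexpression classes.

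Class I was split. OFP1 (AT5G01840; chromosome 5, 324428 to 325678), the repressor of cell elongation, had 494 reads in DEX against 913 in mock. Its log2 ratio was -0.67 ± 0.08, with an interval from -0.83 to -0.51, or 1.59-fold lower. OFP12 exceeded it in size by a log2 difference of -1.42 ± 0.17. OFP7 (AT2G18500; chromosome 2, 8026957 to 8028273) had 304 reads in DEX against 422 in mock, for a log2 ratio of -0.25 ± 0.11. The authors' posterior for DEX being higher was 0.013 for OFP7 in the authors' deposited table, so its call is less firm than that of OFP1, for which it was listed as 0. The other 3 genes of the class lay close to 0. OFP2 (AT2G30400; chromosome 2, 12956445 to 12957807) had 137 and 166 reads, for a log2 ratio of -0.05 ± 0.17. OFP4 (AT1G06920; chromosome 1, 2124676 to 2125902), the partner of KNAT7, had 132 and 150 reads, at 0.03 ± 0.17. OFP5 (AT4G18830; chromosome 4, 10336566 to 10338674) had 429 and 496 reads, at 0.01 ± 0.10. For OFP5, 1585 of 2109 exonic bases overlap genes on the other strand, so its reads are uncertain if the counting did not use strand. The overlapping gene AT4G18840 was called higher at 0.23 ± 0.08. The intervals ran from -0.39 to 0.28 for OFP2 and from -0.31 to 0.38 for OFP4, so these reads do not exclude a change within these bounds. For OFP4 and OFP5 the sign turned negative with the median ratio set to 0.

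Neither class II gene was called. OFP6 (AT3G52525; chromosome 3, 19474945 to 19476181) had 422 reads in DEX against 494 in mock, for a log2 ratio of -0.01 ± 0.10. OFP8 (AT5G19650; chromosome 5, 6639455 to 6640408) had 114 and 107 reads, for a log2 ratio of 0.31 ± 0.19 with an interval from -0.08 to 0.71. It had the highest ratio of the members and the fewest reads, and its posterior that mock was higher, 0.063 in the authors' deposited table, lay just outside the limit.

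Both class III members were called lower, by small amounts. OFP15 (AT2G36050; chromosome 2, 15135568 to 15137012) had 1397 reads in DEX against 1906 in mock, for a log2 ratio of -0.23 ± 0.05 or 1.17-fold lower. OFP13 (AT5G04820; chromosome 5, 1399395 to 1400784) had 1286 and 1611 reads, at -0.10 ± 0.05 or 1.07-fold lower. For OFP13 the posterior of DEX being higher was 0.023 in the authors' deposited table, just inside the limit, and its counting interval, from -0.21 to 0.003, reached past 0. These are the members with the most reads, where small ratios pass the limit.

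**Figure D2:**
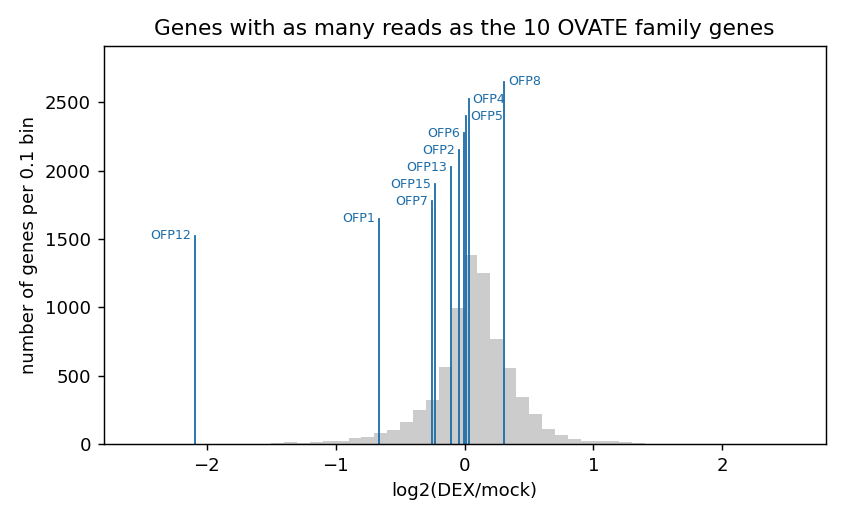
Number of genes per bin of log2(DEX/mock), 0.1 wide, for the 7564 genes with 221 to 3303 reads (grey), with the ratio of each of the 10 OVATE family genes as a blue line whose height has no meaning. OFP12 at -2.09 and OFP1 at -0.67 lie in the left tail, and the other 8 lie between -0.25 and 0.31 in the body of the distribution.

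RefSeq names 9 further genes of the family, which the members do not include. All 9 had reads in both pools, of which 4 were called lower, 0 higher and 5 not called. The median log2 ratio of -0.30 is the value of OFP9, which had 5 reads in all. OFP16 (AT2G32100), of class III, had 391 reads in DEX against 823 in mock, for a log2 ratio of -0.85 ± 0.09 or 1.81-fold lower. OFP17 (AT2G30395) had 27 and 88 reads, at -1.47 ± 0.32 or 2.77-fold lower, so its size is loosely bounded, from -2.16 to -0.85. AT2G36026, annotated only as an OVATE family protein, had 345 and 536 reads, at -0.41 ± 0.10. It overlaps AT2G36030, which had no reads, over 213 of its 552 exonic bases. OFP18 (AT3G52540), of class III, had 465 and 650 reads, at -0.26 ± 0.09. With these, all 4 class III genes were called lower, from -0.85 to -0.10, though the counting interval of OFP13 reached past 0. The classes were added with the values in view, so this count is a description only. OFP14 had 887 and 967 reads, at 0.10 ± 0.07, and all its 888 exonic bases overlap AT1G79950 on the other strand, which was called higher at 0.30 ± 0.03. OFP10 and OFP11, with 203 and 134 reads in all, were at -0.25 ± 0.21 and -0.35 ± 0.25. OFP3, with 38 reads, was at -0.26 ± 0.47, and OFP9 had only 2 reads in DEX against 3 in mock. In all, 9 of the 19 family genes were called lower and 0 higher, where 20.8% of all genes were called lower and 36.4% higher. A pair of loci annotated as like OFP genes went opposite ways. AT3G52550 had 13 reads in DEX against 40 in mock, at -1.36 ± 0.46, and was called lower. AT1G06923 had 11 and 5 reads, at 1.26 ± 0.77, and was called higher on very few reads.

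**Figure D3:**
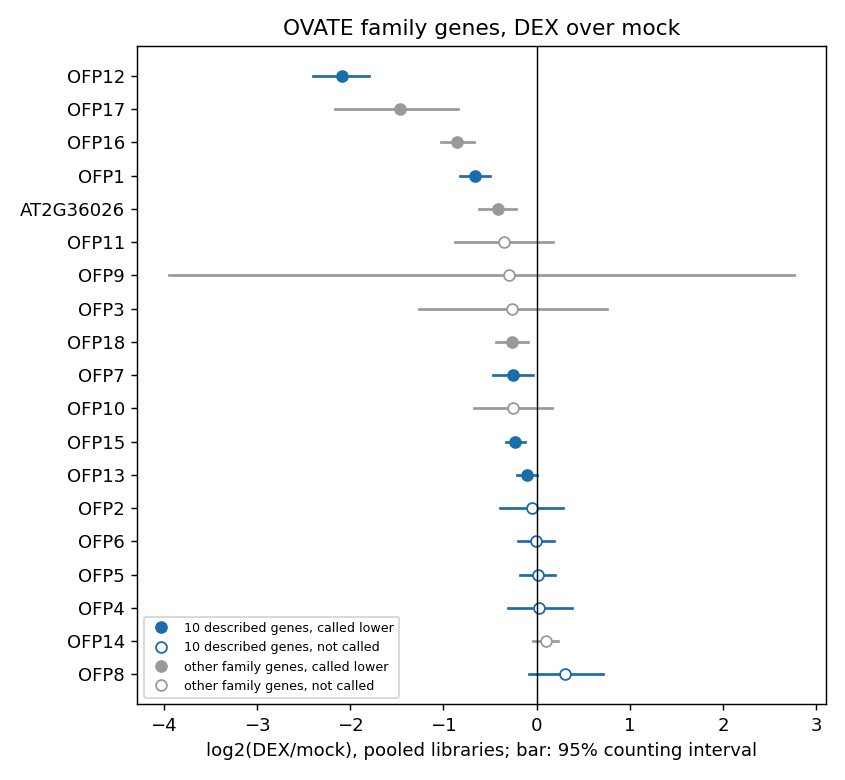
Log2(DEX/mock) of the 19 OVATE family genes, ordered by ratio, with 95% exact counting intervals; blue marks the 10 described genes, grey the other 9, and filled circles those called lower. The 9 filled circles run from OFP12 at -2.09 to OFP13 at -0.10, and no gene was called higher.

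Close relatives did not always share a ratio. OFP12 is most similar to OFP16, at 52.1% amino acid identity over 261 aligned columns, and both were lower, OFP12 by a further -1.24 ± 0.17 on the log2 scale. OFP15 and OFP18, at 48.7% identity, had ratios of -0.23 and -0.26, a difference of 0.03 ± 0.10. OFP2 and OFP4, at 48.5% identity, differed by -0.08 ± 0.24, and neither was called. OFP1 and OFP2, at 35.7% identity, differed by -0.62 ± 0.18. OFP6 and AT2G36026, at 61.4% identity over 176 aligned columns, differed by 0.41 ± 0.14, with AT2G36026 the lower of them. OFP7 and OFP8, each the other's closest relative at 32.0% identity, differed by -0.56 ± 0.22. No member had a near-identical copy, at 95% identity over at least 100 bases. Shorter shared stretches were not counted, so reads shared over them cannot be seen. OFP9, which is not a member, had such copies outside the family. On the chromosome, OFP2 and OFP17 lie head to head with 1156 bases between them, and their log2 ratios differed by 1.42 ± 0.36, OFP17 being lower. AT2G36026 and OFP15 lie 7751 bases apart, on opposite strands, and their ratios differed by 0.19 ± 0.11, which is under 2 counting errors.

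Families and pathways that hold known partners and targets of OVATE proteins gave a mixed picture, with GA20OX1 standing lowest. These lists are broad, and a listed gene need not itself be a partner or target. GA20OX1, the gibberellin 20-oxidase gene that OFP1 represses, had 318 reads in DEX against 723 in mock, for a log2 ratio of -0.97 ± 0.10 or 1.95-fold lower. GA20OX2, with 1290 reads in DEX against 1428 in mock, was at 0.07 ± 0.06 and was not called. The other 3 GA20OX genes had 4 to 13 reads in all, too few to be compared. Of the 21 KNOX and BELL genes, 12 were called lower and 3 higher, 6 were not called, and the median log2 ratio was -0.09. Over all genes the shares were 20.8% lower and 36.4% higher. At 1.5-fold or more 4 were lower and 0 higher, beside 2.91% lower and 4.45% higher over all genes. KNAT1, which maintains the shoot meristem, had 2650 reads in DEX against 4700 in mock, at -0.61 ± 0.04. KNAT6, a meristem and boundary gene, was at -0.64 ± 0.06. The BELL genes BLH2, which limits leaf margin growth, and BLH5 were at -0.78 ± 0.05 and -0.63 ± 0.14. The 3 higher genes, looked up after the count was known, were ATH1 at 0.46 ± 0.03, KNAT5 at 0.23 ± 0.03 and BLH3 at 0.20 ± 0.04.

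The genes whose proteins are named partners of single OVATE proteins had log2 ratios between -0.14 and 0.07. KNAT7 and BLH6, the partners of OFP1 and OFP4, were at 0.01 ± 0.05 and -0.02 ± 0.06 and were not called. KNAT3 and BLH1, the partners of OFP5, were called lower at -0.14 ± 0.02 and -0.07 ± 0.03, and BLH1 has 929 bases that overlap a gene on the other strand. KU70, a DNA repair gene whose protein binds OFP1, was called higher at 0.07 ± 0.04, but KU70 and KU80 were not called with the median ratio set to 0. Among 14 secondary wall genes, 13 had reads in both pools, of which 8 were called lower and 1 higher, 0 of them past 1.5-fold, at a median of -0.16, beside 20.8% lower and 36.4% higher over all genes. Centring on the median gene gave 10 lower and 1 higher, with 29.5% of all genes then lower. NST3 had 2 reads in mock and 0 in DEX. The TON1 and TRM group holds microtubule organisers, and in tomato OVATE proteins bind some of the TRM proteins. Of its 5 genes 2 were called lower and 1 higher, beside the same 20.8% and 36.4% over all genes. With the median ratio set to 0 these counts were 2 and 0, beside 29.5% of all genes lower. The lower ones, looked up after the count was known, were LNG2 at -0.48 ± 0.02 and LNG1 at -0.17 ± 0.02, both promoters of organ elongation, and the higher one was TON1A at 0.09 ± 0.03.

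**Figure D4:**
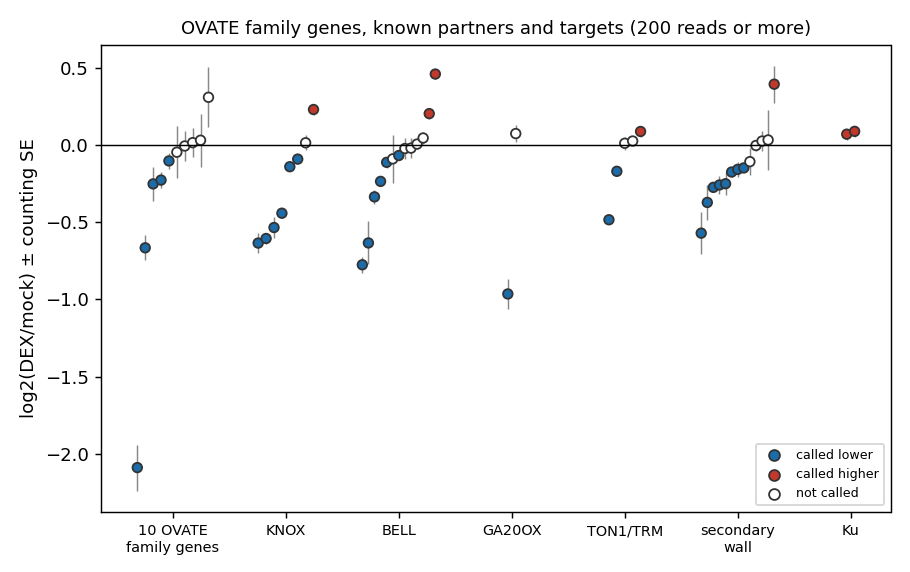
Log2(DEX/mock) with 1 counting standard error for the 10 OVATE family genes and for fixed lists, for genes with 200 reads or more. The lists are families and pathways that hold known partners and targets, and not every listed gene is one. Blue is called lower, red called higher and white not called. GA20OX1 at -0.97 is the lowest point outside the OVATE genes, and KNOX and BELL genes run from -0.78 to 0.46.

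Markers of other parts of the bud differed between the pools too, and their part in the ratios above was not tested. Over all genes 20.8% were called lower and 36.4% higher. Many of the markers had many reads, where small ratios pass the limit, such as PI at -0.03 ± 0.01. All 6 floral identity genes were called lower, at log2 ratios from -0.68 to -0.03, with a summed level of 433 RPKM in DEX and 490 in mock. Of 4 late pollen genes 3 were called higher and 1, PPME1, lower at -0.28 ± 0.03, and the summed level of the 4 was 775 RPKM in DEX and 624 in mock. Of 4 tapetum genes 3 were called higher and 1 lower, at a summed 479 RPKM in both pools. Of 3 carpel genes 2 were called lower, at a summed 83.6 RPKM in DEX and 89.8 in mock. ALC, the carpel gene not called, gave 41.8 and 42.3 RPKM of these sums. For ALC, 870 of 1030 exonic bases overlap a gene on the other strand, so its reads are uncertain if the counting did not use strand.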

How the data were processed

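Messenger RNA of floral buds was sequenced in 8 libraries, 4 per treatment. The submitters' processing notes name TopHat 1.2.0, HTSeq 0.4.5p6 and build TAIR10 but give no roles. Strand setting and removal of PCR copies were not given in the sources used here. The authors deposited 1 table of 28775 genes made with LOX, a sampling program for relative expression. Each level is, as read from the values, a ratio to the lower treatment, set to 1 by the authors. The file headers name, beside the levels, a posterior probability of each direction and a log-likelihood score of the authors' fit. The table has 1 column of levels per treatment, pooled over libraries. The planned tests on counts per library, their alternatives and any replicate test therefore had no input, and the deposited posterior was used as planned for pooled values. Its 4 interval columns were not used.

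Log2 ratios of DEX to mock were computed from the deposited ratio. Reads per pool were recovered from the score, read as a Poisson log-likelihood summed over the pools. No source states this form, and all reads, levels and counting errors rest on it. Totals came within 0.1 of a whole number for 99.98% of the 8294 genes that had 1000 reads or fewer and were read in both pools. The recovered reads summed to 102142647 in DEX and 119056377 in mock. The counting standard error came from these reads, and intervals are exact (Clopper-Pearson) at 95%. All cover counting error only. Levels (RPKM) are reads normalised to annotated exon length and to the pool's total. Calls required reads in both pools and a posterior under 0.05, in the authors' table, for the other direction. Across 8089 of the genes with over 200 reads, which are only a part of them, the normal score of the posterior followed the ratio over its counting error. The slope was 1.00, so for these genes the posterior held no visible term for spread between replicates. Counting error alone would put about 10% of unchanged genes past the limit.

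Named genes were the 10 members, the other OVATE family genes, the members of fixed lists called at 1.5-fold or more, 6 known partners or targets whatever their value, and the genes next to a called member. The text also names tissue markers, genes that overlap a family gene, loci annotated as like OFP genes, and genes outside this rule. The last are ATH1, KNAT5, BLH3, GA20OX2, LNG1, LNG2, TON1A, KU80, NST3 and KIS, which were chosen after their values were seen. The members and lists were chosen with earlier results of these data known. The OVATE classes came from general knowledge and were added with the values in view. Gene models, positions and upstream sequence came from RefSeq TAIR10.1, which 28009 listed loci matched. Positions are those of TAIR10.1. Identity between family proteins was computed from translated coding sequences by local alignment (BLOSUM62, gap penalties 11 and 1). A blastn 2.17.0 search looked for near-identical copies, at 95% identity over at least 100 bases. Python 3.11.15, NumPy 2.4.6, pandas 2.3.3, SciPy 1.17.1, Biopython 1.88 and Matplotlib 3.10.9 were used. Recovery and calls were also run on simulated Poisson reads, scored with the same inferred formula and without spread between replicates. That run checks the code only, and cannot show that the formula or the calls hold for the real libraries. Alternatives were a posterior limit of 0.01, a 1.5-fold limit, ratios centred on the median gene, totals without the 1% most abundant genes, and subsets of the members.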

Additional observations from a re-analysis of the deposited data

How the results depend on the processing

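No paired analysis was possible because the table gives 1 value per treatment and none per library. For the same reason other count models, gene filters and the removal of a replicate were not run. Of the 30 values of single members under another posterior limit or scaling, 26 kept their direction and call. The stricter posterior limit leaves each ratio as it was and cannot add a call, so part of this count was fixed in advance. OFP7 and OFP13 lost their calls at a posterior limit of 0.01, and OFP4 and OFP5, which were not called, went to -0.023 and -0.039 with the median ratio set to 0, by construction of that shift. The number of members called lower was 5, and 3 at a posterior limit of 0.01 or 2 at 1.5-fold. Of all 24945 genes with reads in both pools, 4255 were lower and 7254 higher at the limit of 0.01. With the 1.5-fold limit 2.91% of all genes were lower and 4.45% higher. For the other lists the 1.5-fold limit was added after seeing the data. With it, the other family genes called went from 4 to 2. The genes called on the lists of families and pathways that hold known partners and targets went from 30 to 5. Fold limits leave fewer genes by construction. The members' median log2 ratio of -0.08 ran from -0.13 to -0.05 over its alternatives, the last without OFP12, added after seeing the data. The recovered reads, and so all errors and levels, rest on an inferred formula.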

Other observations

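Where they had reads in both pools, the genes next to the 5 members called lower had higher ratios than OFP12 and OFP1. AT2G36026 was lower than OFP15 beside it, by a log2 difference of 0.19 ± 0.11. Beside OFP12, AT1G05410 was called lower at -0.13 ± 0.04 and AT1G05430 was not called at -0.03 ± 0.04. Beside OFP1, AT5G01830 was not called at -0.09 ± 0.07 and AT5G01850 was called higher at 0.09 ± 0.04. Beside OFP7, AT2G18490 had 8 reads and emb2444 was not called at -0.04 ± 0.02. Beside OFP13, AT5G04810 was called lower at -0.07 ± 0.02 and AT5G04830 was not called at -0.05 ± 0.03. Beside OFP15, the family gene AT2G36026 was called lower at -0.41 ± 0.10, AT2G36030, which overlaps it, had no reads, and MMZ3 was not called at 0.02 ± 0.03. The uncalled OFP2 lies between OFP17, at -1.47 ± 0.32, and KIS, at -0.12 ± 0.03, which were both called lower.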
